A study of Mus musculus with 2 samples.

Results

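The immediate early genes of the AP-1 family and their companions were examined in sorted colonic epithelial cells of mice with and without Mettl14. The set holds 10 named genes of the 17829 gene symbols in the deposited count matrix, namely Fos, Fosb, Jun, Junb, Jund, Egr1, Ier2, Dusp1, Zfp36 and Nr4a1. They were chosen by name, as a possible sign of stress during tissue dissociation, and all 10 were found. Earlier results of these data were known when they were chosen. Live EpCAM-positive cells of C57BL/6 mice had been sorted by flow cytometry after staining on ice and taken through droplet-based 3′ single-cell RNA sequencing. There was 1 library of genotype Mettl14_WT and 1 of genotype Mettl14_ KO, and the design note gives 2 weeks as the age or time, without saying of what. Mettl14 encodes a subunit of the nuclear complex that writes N6-methyladenosine on RNA. The labels name no deleted exon, no Cre driver, no sex, no number of animals and no dissociation time for either library.

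Immediate early genes are switched on within minutes of a stimulus without new protein synthesis. Growth factors, wounding and enzymatic digestion are all known to induce them, and most of their transcripts are short-lived. Fos and Jun proteins pair through leucine zippers to form the transcription factor AP-1, which acts downstream of MAP kinase signalling. In the gut this response accompanies epithelial proliferation and injury, and in single-cell data it is widely used as a marker of dissociation stress. With 1 library on each side, genotype, animal, dissociation and library preparation cannot be told apart, so every ratio below compares these libraries. No value has a replicate check, and the 95% intervals cover counting error only.

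Sequencing depth differed between the libraries. In WT, 60205658 UMIs (unique molecular identifiers, counted once per captured molecule) came from 4210 cells, at a median of 12094 a cell. In KO, 37635762 UMIs came from 3653 cells, at a median of 9119 a cell. The libraries shared 2 cell barcodes. Mettl14 stood at 10.5 CPM (UMIs of a gene scaled to a common library total) in the WT and 5.34 CPM in the KO library, a log2 ratio of KO over WT of −0.97 (−1.21 to −0.74), but if its 3′ tags lie outside the deleted part this level checks nothing. All 8 epithelial markers, Epcam and keratin genes among them, were detected in both libraries. The authors' 7 clusters carry no names. Marker genes gave goblet-like cells in 1 and 2, cycling-like cells in 3, colonocyte-like cells in 4 and enteroendocrine-like cells in 5. Cluster 0 was led by pancreatic enzyme genes and cluster 6 by collagen genes together with S100a8 and S100a9, so both are called by number. At least 1% of UMIs came from pancreatic enzyme genes in 33 WT cells and in no KO cell. Cluster 6 held 117 WT and 31 KO cells, and its values are given without a comparison because fewer than 50 KO cells remained. Over clusters 0 to 5 the log2 ratio of Mettl14 ran from −0.36 (−0.83 to 0.10) in cluster 0 to −1.65 (−2.72 to −0.71) in cluster 2. In clusters 0 and 5 its interval held equal levels.

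Several of the transcripts carry AU-rich elements in the 3′ UTR, the sequence to which the Zfp36 protein (tristetraprolin) binds to speed decay. The nonamer TTATTTATT was found in the 3′ UTR of 3 of the 10 genes, Fos, Dusp1 and Zfp36, and in 7.57% of 21010 annotated mouse genes. The 4 matches are shown with flanking bases because these genes were among those lower in the KO library. Capitals mark the nonamer, and positions give the nonamer's first base, counted from the start of the annotated 3′ UTR on GRCm38.
Fos site at base 655 of the 3′ UTR, chr12:85477103-85477131, plus strand: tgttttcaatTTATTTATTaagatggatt
Dusp1 site at base 103 of the 3′ UTR, chr17:26506159-26506187, minus strand: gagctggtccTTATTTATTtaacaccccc
Dusp1 site at base 392 of the 3′ UTR, chr17:26505870-26505898, minus strand: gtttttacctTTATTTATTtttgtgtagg
Zfp36 site at base 589 of the 3′ UTR, chr7:28376951-28376979, minus strand: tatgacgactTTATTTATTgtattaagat

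The shorter core TATTTAT, which lies inside the nonamer, occurred in the 3′ UTR of 6 of the 10 genes and of 27.4% of all genes. Jund, whose level was alike in both libraries, also held 1 copy, while Egr1, Ier2 and Nr4a1, which were lower in the KO library, held none, as did Junb. GGACT, a common core of the m6A consensus, was present in 9 of the 10 genes against 56.7% of all genes. Jund had 3 copies in 533 bases of 3′ UTR, Ier2 had 4 in 755 bases and Nr4a1 had none. A match is a run of letters and shows neither binding nor methylation.

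Upstream of the transcription start, RefSeq promoter entries were matched for 8 of the 9 genes whose sequence was looked up. The 250 bases before the start were searched on both strands for the cyclic AMP response element TGACGTCA, its first 6 bases TGACGT, the AP-1 site TGACTCA and the CArG box bound by serum response factor. Among these 8 windows 3 held a match of any motif, and the share of all windows holding any of them was not counted. Starts are those of the RefSeq entries, and the Jund window, at 70697489 to 70697738, ends short of the annotated gene start at 70698949. The bases next to that Jund start were therefore not searched. The Dusp1, Zfp36 and Nr4a1 windows lie inside the annotated gene spans, at 26505590 to 26562128 for Dusp1 and 28376784 to 28380253 for Zfp36. They are upstream of the RefSeq starts only. The full element TGACGTCA stood at −143 to −136 in Dusp1, which also held a separate TGACGT at −191 to −186, and Fos held TGACGT at −66 to −61. The shorter motif is part of the longer one, and it was added to the search after the sequences had been seen. Without TGACGT, the Fos window would have held no match. A CArG box lay at −58 to −49 in Zfp36. Of 32851 promoter windows of the same length, 1.55% held TGACGTCA, 6.47% TGACGT, 4.46% TGACTCA and 1.47% a CArG box. The 3 windows with a match are shown with the matches in capitals, from RefSeq on GRCm38.p6.
Fos upstream, chr12:85473640-85473889, plus strand: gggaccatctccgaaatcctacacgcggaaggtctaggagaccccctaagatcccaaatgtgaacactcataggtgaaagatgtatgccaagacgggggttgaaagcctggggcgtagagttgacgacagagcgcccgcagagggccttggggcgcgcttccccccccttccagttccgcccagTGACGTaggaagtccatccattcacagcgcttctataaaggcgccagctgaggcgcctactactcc
Dusp1 upstream, chr17:26508473-26508722, minus strand: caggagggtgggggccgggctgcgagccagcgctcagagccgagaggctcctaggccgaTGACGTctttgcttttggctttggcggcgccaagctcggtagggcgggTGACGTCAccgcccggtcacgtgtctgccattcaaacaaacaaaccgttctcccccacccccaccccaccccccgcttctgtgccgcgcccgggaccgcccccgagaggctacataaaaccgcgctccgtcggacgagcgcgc
Zfp36 upstream, chr7:28379229-28379478, minus strand: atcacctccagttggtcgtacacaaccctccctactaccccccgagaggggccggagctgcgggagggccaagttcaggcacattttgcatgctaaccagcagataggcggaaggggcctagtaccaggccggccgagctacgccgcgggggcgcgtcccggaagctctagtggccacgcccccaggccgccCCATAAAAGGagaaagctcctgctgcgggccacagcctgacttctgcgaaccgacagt

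Over all cells, 8 of the 10 genes were lower in the KO library, meaning at least 1.5-fold below the WT level and with equal levels outside the interval, and none was higher. Among all 13334 genes with at least 50 UMIs, 16.2% were lower and 16.7% higher by the same rule. Because the 10 genes were chosen with earlier results of these data known, these shares describe the set and test nothing. The median log2 ratio of the 10 genes was −1.61, against −0.04 for all measured genes. Summed over the 10 genes, the level was 1848 CPM in the WT and 851 CPM in the KO library, a log2 ratio of −1.12 (−1.14 to −1.10). The genes that stood apart from the rest were Jund and Junb.

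Among the Fos proteins, which bind DNA only as partners of Jun proteins, Fos counted 23547 UMIs among WT cells and 3408 among KO cells. These counts correspond to 391 CPM (386 to 396) and 90.6 CPM (87.5 to 93.6), a 4.32-fold lower level and a log2 ratio of −2.11 (−2.16 to −2.06). Fos lies on chromosome 12 at 85473890 to 85477273 on the plus strand (GRCm38). Its close relative Fosb, at 19302696 to 19310051 on the minus strand of chromosome 7, showed the lowest ratio of the 10 genes. It counted 7555 UMIs in WT and 464 in KO cells, or 125 and 12.3 CPM, a log2 ratio of −3.35 (−3.49 to −3.21).

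The Jun family was uneven. Jun, the partner that gives AP-1 much of its activity, stood at 442 CPM (437 to 448) in WT cells and 197 CPM (193 to 202) in KO cells, with a log2 ratio of −1.16 (−1.20 to −1.13). Junb, often described as a weaker activator that tempers Jun, stood at 98.4 against 78.3 CPM. Its log2 ratio was −0.33 (−0.39 to −0.27), which is below the WT level but short of 1.5-fold. Jund, the family member known for steady expression with little induction, stood at 292 CPM (288 to 296) and 308 CPM (302 to 313), a log2 ratio of 0.08 (0.04 to 0.11). Jun lies on chromosome 4 at 95049034 to 95052222, Junb on chromosome 8 at 84974484 to 84978718 and Jund on chromosome 8 at 70698949 to 70700616. Each overlaps a gene annotated on the opposite strand (Junos, Prdx2 and Gm11175). How strand was used in counting is not given in the sources used here. Whether reads of these partners were counted for the Jun genes was therefore not checked.

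The other immediate early regulators were lower in the KO library as well. Egr1, a zinc finger transcription factor induced through serum response factor, stood at 125 CPM (122 to 127) in the WT and 44.7 CPM (42.6 to 46.9) in the KO library, a log2 ratio of −1.48 (−1.55 to −1.40). Ier2, a nuclear protein of the immediate early response, stood at 227 and 85.3 CPM, a log2 ratio of −1.41 (−1.46 to −1.35). Nr4a1, an orphan nuclear receptor, had 1661 UMIs against 176, or 27.6 and 4.68 CPM, with a log2 ratio of −2.56 (−2.79 to −2.34). In all 3 genes the intervals of the WT and KO levels lay far apart.

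Both feedback genes of the set were lower too. Dusp1 encodes a phosphatase that switches off MAP kinases, and it counted 1984 UMIs in WT and 174 in KO cells. Its levels were 33.0 CPM (31.5 to 34.4) and 4.62 CPM (3.96 to 5.36), a 7.13-fold lower level with a log2 ratio of −2.83 (−3.07 to −2.61). Zfp36, which encodes the decay factor tristetraprolin, stood at 86.4 CPM (84.0 to 88.8) and 25.7 CPM (24.1 to 27.4), a log2 ratio of −1.75 (−1.85 to −1.65). These genes also overlap other annotated genes. Zfp36 overlaps Gm44710 on the opposite strand. Dusp1 overlaps Ergic1 and Gm8225 on the opposite strand and AC122252.1 and AC122252.4 on its own strand. As for the Jun genes, whether reads of these overlapping genes were counted was not checked.

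**Figure D1:**
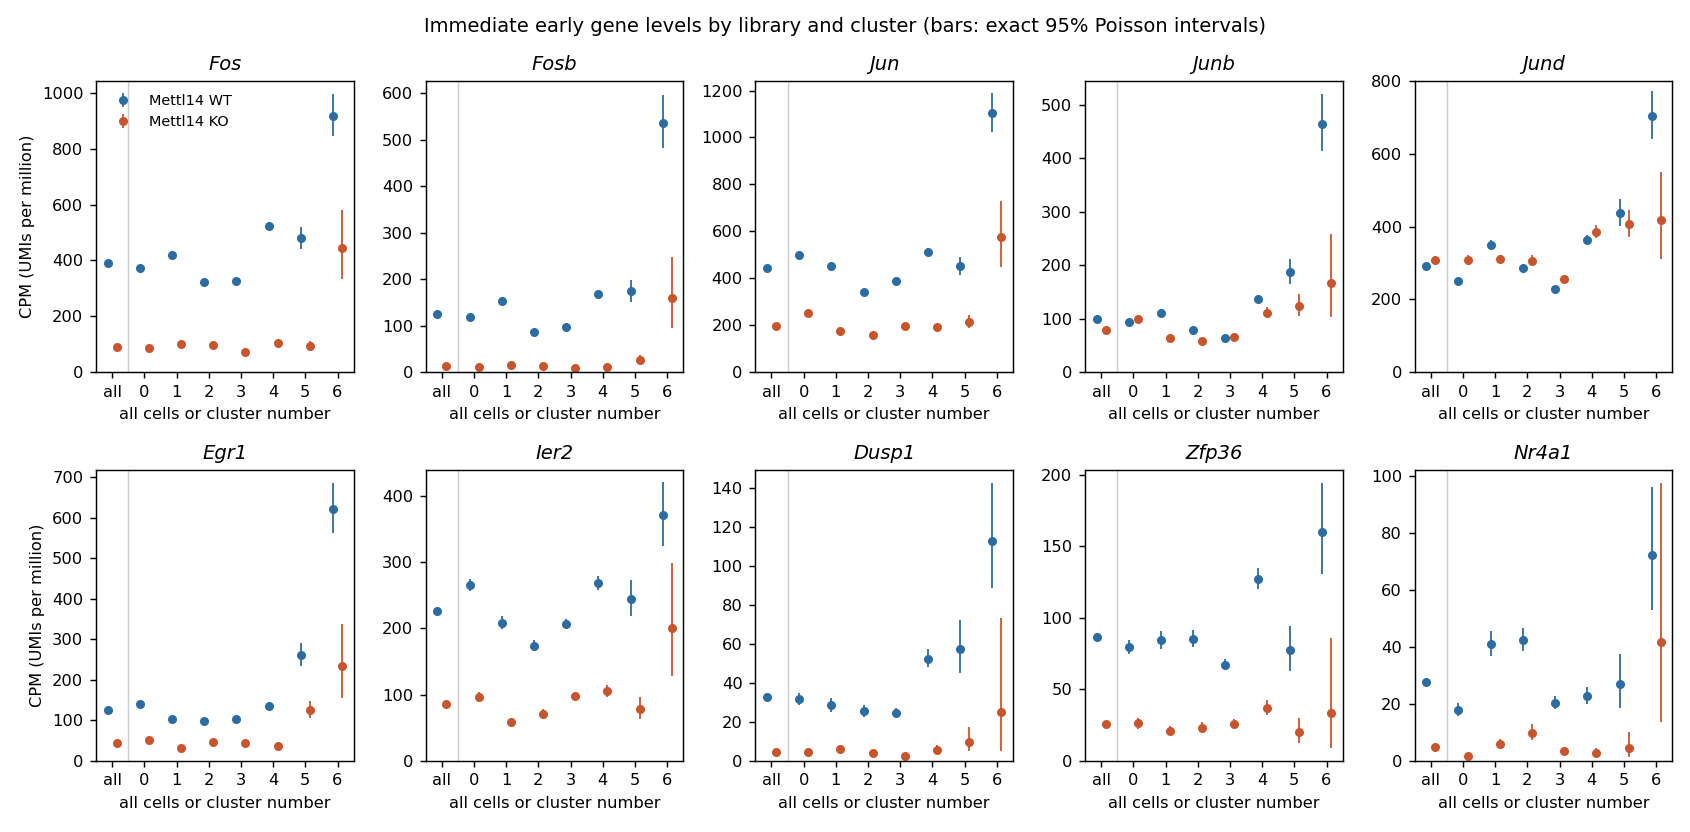
Levels of the 10 genes in CPM (vertical axis of each panel, starting at 0) over all cells and in clusters 0 to 6 (horizontal axis), for the WT library in blue and the KO library in orange, with exact 95% Poisson intervals. In clusters 0 to 5 the orange points of 8 genes lie below the blue ones, Jund points lie close together, and cluster 6 has the highest WT level of every gene.

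The make-up of the summed UMIs restates these ratios as shares of a total that was smaller in KO. Fos made up 21.2% of the summed UMIs of the 10 genes in WT cells and 10.6% in KO cells. The share of Fosb was 6.79% and 1.45%. Jund held 15.8% (WT) and 36.1% (KO), whereas Jun held a like share in both, 24.0% and 23.2%. The larger KO share of Jund goes with a summed level of 851 against 1848 CPM, while its own level was 308 against 292 CPM.

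**Figure D2:**
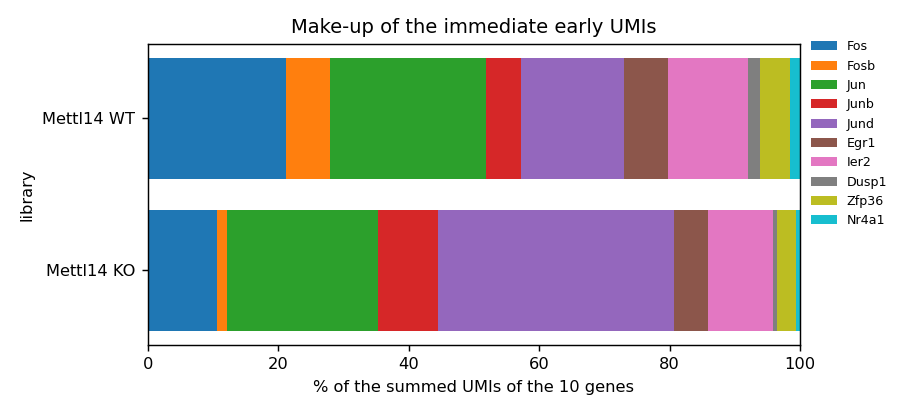
Percent of the summed UMIs of the 10 genes (horizontal axis) that each gene held in the WT and the KO library (bars). The Jund segment covers 15.8% of the WT bar and 36.1% of the KO bar, and the Fos segment 21.2% and 10.6%.

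The authors' clusters were then compared, to see whether 1 kind of cell carried the difference. In each of clusters 0 to 5, at least 8 of the 10 genes were lower and none was higher. In cluster 0 they numbered 8, where 12.9% of all measured genes were lower and 19.9% higher. In goblet-like cluster 1 they numbered 9, Junb included, where 16.8% of all genes were lower and 13.1% higher. In goblet-like cluster 2 they numbered 8 (16.7% lower and 14.4% higher over all genes). Cycling-like cluster 3 also had 8 (11.7% and 17.5%), and so had colonocyte-like cluster 4 (12.7% and 16.0%). In enteroendocrine-like cluster 5, 8 of the 9 genes with at least 50 UMIs were lower (9.76% and 14.9%). Nr4a1 had 34 WT and 5 KO UMIs there and fell under the minimum. Fos, Fosb, Jun, Egr1, Ier2, Dusp1 and Zfp36, 7 genes, were lower in all 6 clusters, as were 1.89% of the 6076 genes measured in all 6, of which 5.86% were higher in all 6. Markers of other cells moved as well. Over clusters 0 to 5 the 11 stromal and endothelial markers summed to 11.7 to 109 CPM in the WT and 2.34 to 22.8 CPM in the KO library, and the 13 immune markers to 59.6 to 177 and 116 to 401 CPM. Dcn, Lum, Cdh5 and Kdr were at 0 in each KO cluster from 0 to 5, and each of them was also at 0 in at least 1 of these WT clusters. A filter on these immune markers, Cd74 not counted, dropped each cell holding 3 or more such UMIs. It removed 183 cells from the WT library and 189 from the KO library, and the summed log2 ratio was then −1.12. Cells whose immune UMIs came from Cd74 alone stayed in, so the filter does not cover the whole immune sum above. The part of the stromal transcripts in the result was not tested.

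For Fos the WT levels in clusters 0 to 5 were 372, 419, 324, 327, 525 and 479 CPM. The KO levels in the same clusters were 84.5, 101, 96.8, 72.0, 103 and 92.9 CPM. The highest KO cluster thus lay below the lowest WT cluster, and the log2 ratio ran from −1.74 (−1.87 to −1.61) in cluster 2 to −2.37 (−2.68 to −2.07) in cluster 5. Of clusters 0 to 5, colonocyte-like cells had the highest Fos level in both libraries, although in KO their level and the 101 CPM of cluster 1 lay within counting error of each other, and in WT so did theirs and that of enteroendocrine-like cells.

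For Fosb the WT levels in clusters 0 to 5 were 119, 152, 86.3, 96.3, 167 and 174 CPM, and the KO levels were 10.7, 14.5, 13.1, 8.63, 11.1 and 25.4 CPM. The lowest ratio was that of colonocyte-like cells, with 1639 UMIs against 55 and a log2 ratio of −3.91 (−4.32 to −3.52). In enteroendocrine-like cells the log2 ratio was −2.77 (−3.38 to −2.21). They had the highest Fosb level of clusters 0 to 5 in both libraries, but within counting error of colonocyte-like cells in WT and of goblet-like cluster 1 in KO.

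For Jun the WT levels in clusters 0 to 5 were 499, 451, 340, 388, 514 and 452 CPM, and the KO levels were 250, 176, 157, 197, 192 and 214 CPM. Its log2 ratio stayed between −0.97 (−1.05 to −0.90) in cycling-like and −1.42 (−1.52 to −1.32) in colonocyte-like cells. Among the 7 genes lower in all 6 clusters, Jun had the ratio nearest to 0 in clusters 0, 1 and 3. In WT the levels of colonocyte-like cells and cluster 0 were highest and overlapped within counting error. In KO cluster 0 was highest, with enteroendocrine-like cells next and overlapping it.

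Within clusters 0 to 5, Dusp1, Zfp36, Ier2 and Nr4a1 likewise had a lowest WT cluster above their highest KO cluster, though clusters of a library are not replicates. The share of all measured genes without such overlap was not counted. Dusp1 ranged from 24.6 to 57.6 CPM over the WT clusters and from 2.35 to 9.64 CPM over the KO clusters, with log2 ratios of −2.18 in cluster 1 to −3.39 in cluster 3. Zfp36 ranged from 67.2 to 127.5 CPM and from 20.2 to 37.0 CPM, and in both libraries the highest of these 6 clusters was colonocyte-like. Nr4a1 ranged from 17.9 CPM in cluster 0 to 42.4 CPM in goblet-like cluster 2 in WT, and from 1.55 to 9.86 CPM in the same clusters in KO. In both libraries goblet-like cluster 1 overlapped cluster 2 within counting error. Ier2 ranged from 173 to 268 CPM in the WT and from 58.4 to 105.6 CPM in the KO library.

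Of clusters 0 to 5, enteroendocrine-like cells had the highest Egr1 level in both libraries. The same held for Fosb, Junb, Jund and Dusp1, though not always beyond counting error. Their Egr1 level was 260 CPM (233 to 290) in the WT and 126 CPM (106 to 149) in the KO library, a log2 ratio of −1.04 (−1.34 to −0.76). In clusters 0 to 4 Egr1 ranged from 99.5 to 140 CPM in the WT and from 30.8 to 51.7 CPM in the KO library. Cluster 6 was above all of these, at 622 CPM in the WT and 234 CPM in the KO library. The KO level of Egr1 in enteroendocrine-like cells was therefore near the WT level of clusters 0 to 4, although it was lower than in WT cells of its own cluster.

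Junb and Jund did not follow the other genes. Junb was lower in goblet-like cluster 1, where 110 CPM stood against 63.1 CPM and the log2 ratio was −0.80 (−0.96 to −0.65). It was also lower in enteroendocrine-like cells, where 187 CPM stood against 124 CPM and the log2 ratio was −0.59 (−0.90 to −0.28). In cluster 0 its log2 ratio was 0.08 (−0.06 to 0.21) and in cycling-like cells 0.02 (−0.12 to 0.16), so a difference was not detectable there at this depth. Jund stayed within 1.5-fold in each of clusters 0 to 5. Its log2 ratio ran from −0.17 (−0.25 to −0.10) in cluster 1 to 0.30 (0.22 to 0.38) in cluster 0.

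**Figure D3:**
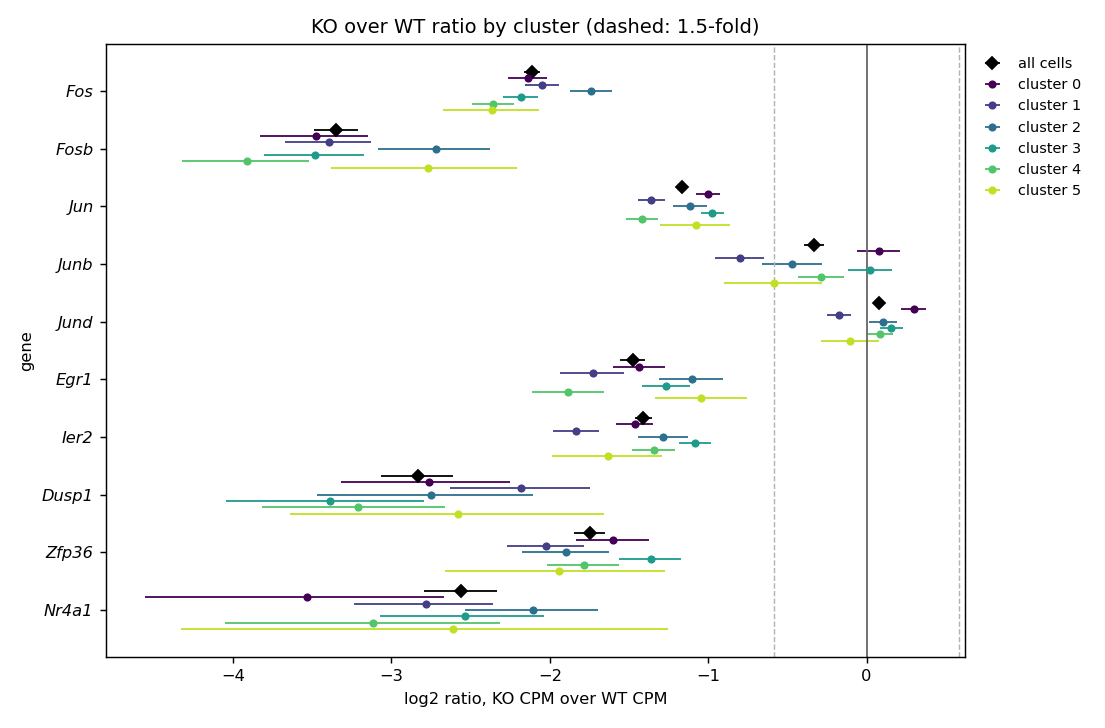
Log2 ratio of KO over WT CPM (horizontal axis) for each of the 10 genes (vertical axis) over all cells (black diamonds) and in clusters 0 to 5 (coloured circles), with exact 95% intervals and dashed lines at 1.5-fold. Fosb lies furthest to the left, Junb lies between −0.80 and 0.08, and Jund lies around 0.

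Cluster 6 had the highest WT level of all 10 genes, for instance 919 CPM of Fos, 537 CPM of Fosb and 622 CPM of Egr1. In its 31 KO cells Fos stood at 443 CPM (332 to 579) and Fosb at 159 CPM (95.6 to 248), from 53 and 19 UMIs. All 11 stromal and endothelial markers were detected in cluster 6 of both libraries and summed to 9217 CPM in the WT and 5942 CPM in the KO cells. The 13 immune markers summed to 2847 CPM in the WT cells, with Cd3e, Cd3g and Cd79a at 0, and to 150 CPM in the KO cells, where 6 of them, Ptprc included, were at 0. The 8 tuft markers summed to 754 CPM in its WT cells, all detected, and to 41.8 CPM in its KO cells, where 7 of them were at 0 and Dclk1 alone was detected. Over all cells the stromal markers summed to 126 CPM in the WT and 23.8 CPM in the KO library. Without cluster 6 the summed log2 ratio was −1.10 and 8 genes were still lower.

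The distribution over single cells shows how widely the difference was spread. Each cell was thinned at random to 3000 UMIs, which left out 172 WT and 97 KO shallower cells. The summed count of the 10 genes then had a median of 5 per cell (quartiles 3 and 8) in WT cells and of 2 (quartiles 1 and 4) in KO cells. In the WT library 4.16% of cells held none of the 10 transcripts, against 12.8% in the KO library. At least 10 such UMIs were found in 15.8% of WT cells and in 0.844% of KO cells. The 10% of cells with the most held 27.9% of these UMIs in the WT and 27.5% in the KO library. The Fano factor of the sums, their variance over their mean, was 4.01 in WT and 1.76 in KO cells.

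The shift was seen within each cluster compared. The median was 5 or more UMIs in WT cells of clusters 0, 1, 4 and 5 and 4 in clusters 2 and 3, and it was 2 or 3 in the KO cells of all 6. Colonocyte-like cells with at least 10 UMIs made up 23.5% (WT) and 2.08% (KO) of that cluster. In the enteroendocrine-like cluster the shares were 36.1% and 2.01%, over 97 and 149 cells.

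**Figure D4:**
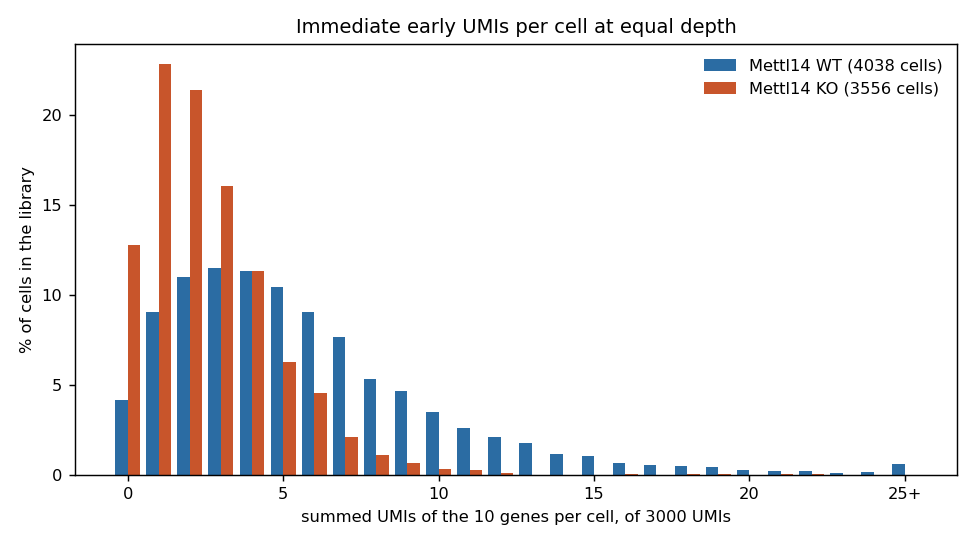
Summed UMIs of the 10 genes per cell after thinning to 3000 UMIs (horizontal axis, the last bar pooling 25 and more) against the percent of cells in each library (vertical axis), WT in blue (4038 cells) and KO in orange (3556 cells). The whole KO distribution is shifted to lower values, with medians of 2 and 5 and with 0.844% against 15.8% of cells at 10 or more.

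Gene by gene, the share of thinned cells with at least 1 UMI was 55.6% (54.1 to 57.2) for Fos in the WT and 19.4% (18.1 to 20.7) in the KO library. For Fosb it was 25.3% and 3.04%, for Egr1 25.8% and 10.9%, and for Dusp1 8.89% and 1.35%. At full depth the Fos shares were 82.2% and 43.1%, those of Fosb 51.2% and 8.92%, those of Egr1 56.1% and 25.4% and those of Dusp1 26.4% and 3.91%. Jund was found in 56.3% of thinned WT and 58.0% of thinned KO cells, and at full depth in 90.3% and 87.2%. No cell type here is known to lack these genes, so no background share of free RNA can be set beside them.

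Counts of the 10 genes varied together weakly from cell to cell. Over the 45 gene pairs, Spearman correlations in thinned WT cells ran from 0.02 to 0.27 with a median of 0.11, and in KO cells from −0.02 to 0.12 with a median of 0.04. In counts this sparse a weak correlation is no finding, and the cells share a library and a fixed depth. The Fano factor of Fos (variance over mean, 1 for pure counting noise) was 2.14 in WT and 1.44 in KO cells, that of Fosb 1.87 and 1.26, and that of Jund 1.25 and 1.19. All 10 genes had the higher Fano factor in WT cells, and 9 of them, all but Jund, also had the higher mean there.

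Both libraries held cells with Xist, transcribed from the inactive X chromosome of females, and cells with Y-linked transcripts. At least 3 Xist UMIs without any from the Y chromosome marked 1689 WT and 1696 KO cells, and Y-linked UMIs without Xist marked 1540 and 996. Fos stood at 377 and 385 CPM in the 2 sets of WT cells and at 90.5 and 89.97 CPM in the 2 sets of KO cells. Fosb stood at 124 and 123 CPM against 12.9 and 11.4 CPM, and Dusp1 at 29.6 and 33.8 CPM against 4.12 and 3.76 CPM. The sets of 1 library differed by at most 1.37-fold, in Nr4a1 of the WT library, at 22.6 and 31.0 CPM. For all genes but Jund both KO values lay below both WT values. The sets come from the same libraries and are not replicates, and the share of all genes with this order was not counted. Summed over the 10 genes, the log2 ratio was −1.08 (−1.11 to −1.05) in Xist-positive and −1.11 (−1.15 to −1.08) in Y-positive cells.

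The mitochondrial share of UMIs and the depth of a cell were also set beside the levels. The summed log2 ratio was −1.13, −1.16 and −1.02 in cells with mitochondrial shares of 5 to 10%, 10 to 15% and 15 to 20%. Below 5%, where 92 WT and 26 KO cells lay, it was −0.61. In cells with under 5000 UMIs the 10 genes summed to 3248 CPM in the WT and 1246 CPM in the KO library. In cells of 10000 to 20000 UMIs they summed to 1741 and 817 CPM. The ratio was between −1.40 and −1.03 in all 4 depth ranges. Cluster 6 was shallow, at a median of 3728 UMIs a cell in WT and 2415 in KO. The 10 genes summed there to 5067 and 2298 CPM, so depth and cell type were not separated.

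The wider lists were also chosen with earlier results of these data known. They are read against all measured genes, of which 16.2% were lower and 16.7% higher. The median log2 ratio of all measured genes was −0.04. Of 13 measured genes among other AP-1 and related leucine zipper partners, 4 were lower (30.8%), 1 was higher (7.69%) and 8 were neither, with a median of −0.28. Atf3, a stress-induced partner that is itself an immediate early gene, stood at 14.5 CPM in the WT and 1.65 CPM in the KO library, with 872 UMIs against 62 and a log2 ratio of −3.14 (−3.53 to −2.76). Bach2 was lower as well (−1.10, −1.44 to −0.78), and Batf2, an interferon-induced member, was higher (1.28, 0.89 to 1.69). Atf3 was lower in each of clusters 0 to 4, from −1.34 (−2.12 to −0.63) in cluster 2 to −3.86 (−5.19 to −2.79) in colonocyte-like cells, and in cluster 5 it had 24 WT and 0 KO UMIs.

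Among 40 other measured immediate early genes, 13 were lower (32.5%), 7 higher (17.5%, near the share over all genes) and 20 neither, with a median of −0.32. Cyr61, a matricellular protein gene that responds to stretch and to YAP, stood at 24.9 against 3.51 CPM (−2.83, −3.10 to −2.57), and it was lower in each of clusters 0 to 4, with 24 and 2 UMIs in cluster 5. Arc, best known from neurons, had 210 UMIs against 28 (−2.23, −2.85 to −1.66). In the other direction, Cebpd, an acute phase transcription factor, stood at 15.1 against 51.9 CPM (1.78, 1.67 to 1.90), and it was higher in each of clusters 0 to 5, most in cycling-like cells (2.61, 2.36 to 2.86). The EGF receptor ligand gene Areg was higher too (1.67, 1.43 to 1.92).

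Most heat shock genes often listed with a dissociation signature lay within 1.5-fold. Of 12 measured, 1 was lower (8.33%), 2 were higher (16.7%) and 9 were neither, with a median of −0.02, so neither share was above that of all genes. The lower gene, the inducible chaperone gene Hspa1a, rested on 49 WT and 11 KO UMIs (−1.48, −2.57 to −0.51), and its near-identical neighbour Hspa1b can share its reads. Dnajb1, a co-chaperone induced by heat, stood at 35.6 against 57.4 CPM (0.69, 0.60 to 0.77) and was above the WT level in each of clusters 0 to 5. The small heat shock gene Hspb1 was higher over all cells (0.60, 0.37 to 0.84), but in goblet-like cluster 1 its ratio was 1.71 (1.32 to 2.11) and in enteroendocrine-like cells it had 69 UMIs in the WT against 1 in the KO library.

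Genes that restrain or drive MAP kinase signalling followed. Among 17 phosphatases and feedback genes of the ERK pathway, 5 were lower (29.4%), 3 higher (17.6%, near the share over all genes) and 9 neither, with a median of −0.02. Spry2, a feedback inhibitor of receptor tyrosine kinases, stood at 32.6 against 13.05 CPM (−1.32, −1.46 to −1.18). Etv5, an ERK-induced transcription factor, was lower (−1.63, −1.84 to −1.42), with its highest WT level in goblet-like cluster 2, at 65.3 CPM. Dusp14 (1.59, 1.31 to 1.88) and Dusp4 (1.48, 1.10 to 1.86), phosphatases of the same family as Dusp1, were higher. Of 21 kinases, receptors and serum response factor partners upstream, none was lower and 1 was higher (4.76%), Elk3 (0.66, 0.41 to 0.91), with a median of −0.11.

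Among 20 measured factors that bind AU-rich elements or shorten poly(A) tails, 2 were lower (10.0%), 1 was higher (5%) and 17 neither, with a median of −0.35. Both shares were below those of all genes. Zfp36l2, a paralogue of Zfp36, stood at 290 against 132.5 CPM (−1.13, −1.18 to −1.08) and was lower in each of clusters 0 to 5, by −0.89 to −1.38. The splicing and decay factor gene Khsrp was lower (−0.60, −0.70 to −0.50), and Dcp2, the decapping enzyme, was higher (0.90, 0.81 to 1.001).

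**Figure D5:**
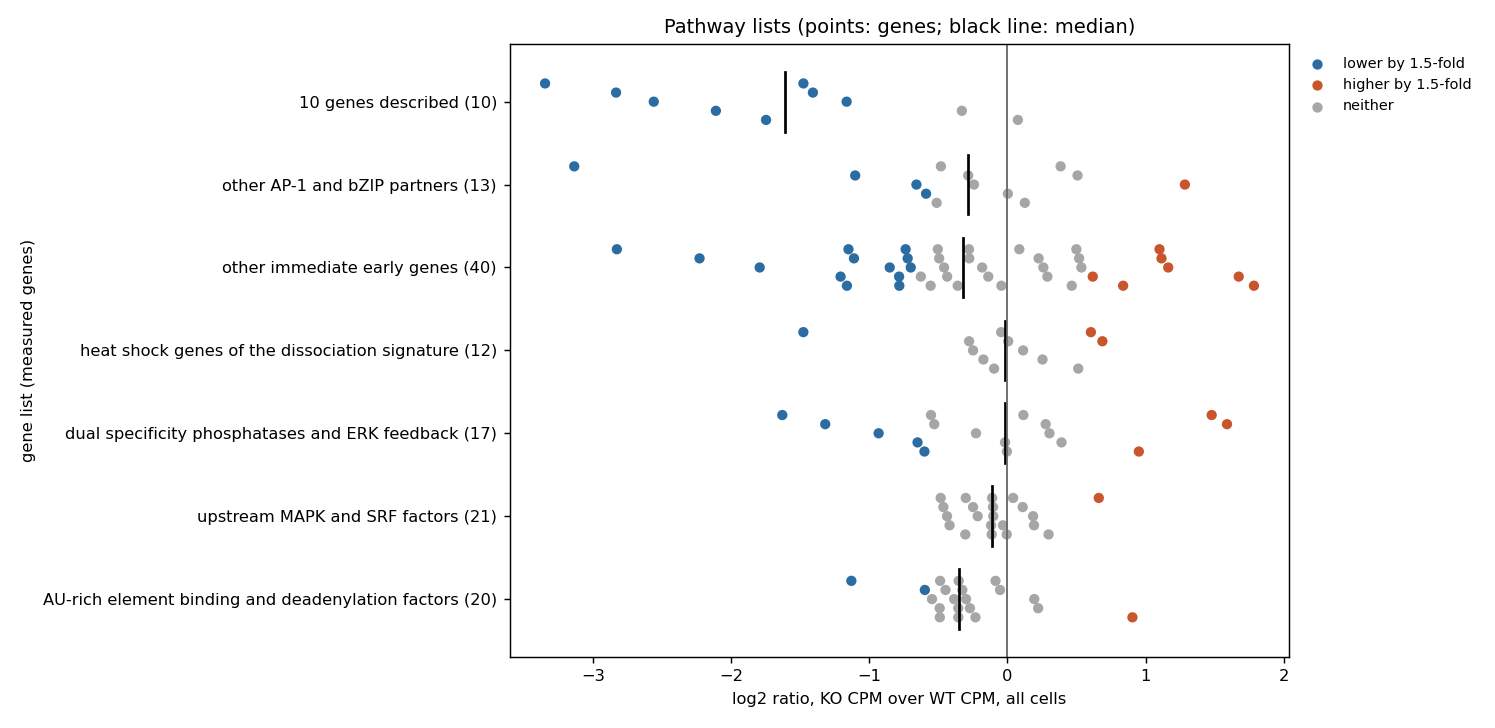
Log2 ratio of KO over WT CPM over all cells (horizontal axis) for the measured genes of each list (vertical axis), coloured by whether they were lower or higher by 1.5-fold or neither, with the list's median as a black line. The median of the 10 genes lies at −1.61, and those of the other 6 lists lie between −0.35 and −0.02.

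The genes with the profile most like that of the 10 were sought among 4814 others with at least 50 CPM in a cluster of a library, by Pearson correlation of log2(CPM + 1) over 13 clusters of the libraries with at least 50 cells. The closest were Srsf5 (0.96), Luc7l2 (0.96), Rhoa (0.95), Ccnl1 (0.95), Eif4a2 (0.95), Spry2 (0.95), Bsg (0.95), Gpbp1l1 (0.94), Mia (0.94) and Cyr61 (0.93). Within the 7 WT clusters, which are among the points that chose them, these genes correlated at 0.74 to 0.98. Within the 6 KO clusters the values ran from −0.78 for Cyr61 to 0.93 for Gpbp1l1. The points share 2 libraries, and cluster 6 of the WT library lies far above the rest, and no p is given.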

How the data were processed

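The authors deposited UMI counts per gene symbol and cell in a filtered matrix, with a table of each cell's library and cluster. The submitters' processing notes list bcl2fastq, Cell Ranger and mm10 without versions, and filters and clustering are not given in the sources used here. Cells had at least 792 UMIs and under 20% mitochondrial UMIs. No doublets were removed here.

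UMIs were added up over cells and scaled to CPM. Intervals (95%) are exact Poisson for CPM, conditional binomial for ratios and Clopper-Pearson for shares of cells, and cover counting error only. No test or p-value was possible with 1 library each. Calls needed 1.5-fold, an interval without equal levels and 50 UMIs over both libraries, and clusters needed 50 cells in both. The 10 genes and the lists were chosen with earlier results of these data known. Named genes were the 10, up to 2 called per list and direction whose interval lay farthest from equality, the 10 closest profiles and Mettl14. Transcripts came from GENCODE vM21. Python 3.11.15, numpy 2.4.6, pandas 2.3.3, scipy 1.17.1 and matplotlib 3.10.9 were used. Counts for 13334 genes at these depths were also simulated with Poisson noise only. For 98% of 100 genes changed 2-fold, the interval excluded equal levels on the right side. The 1.5-fold rule was not applied there. Variation between animals or libraries was not simulated, so the result covers counting error alone.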

Additional observations from a re-analysis of the deposited data

Results flagged for a closer look

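Jund differed in direction between clusters. Its log2 ratio of KO over WT was 0.30 (0.22 to 0.38) in cluster 0, at 251 CPM in the WT and 308 CPM in the KO library, and −0.17 (−0.25 to −0.10) in goblet-like cluster 1, at 349 and 310 CPM. Both intervals exclude equal levels and cover counting error only. With 1 library per genotype the difference between the clusters was not tested.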

How the results depend on the processing

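Under 13 other settings for each of the 10 genes, 102 of 130 log2 ratios stayed within the counting interval of the reported value, 28 lay outside it and none of the 8 genes called lower changed sign. The count of 8 lower genes held under all 13, under no UMI minimum, a minimum of 200 UMIs and a 2-fold rule. No interval was computed for the mean of per-cell CPM or for equal weight of each cluster, so there the count rests on the fold and the UMI minimum. The summed log2 ratio of −1.12 became −1.19 without mitochondrial, ribosomal protein and haemoglobin genes in the total, −1.08 with median-of-ratios scaling, −1.16 as a mean of per-cell CPM, −1.16 with cells thinned to 3000 UMIs, −1.08 in Xist-positive cells and −1.10 without cluster 6. Leaving out cluster 6 and cells under 5000 UMIs was chosen after seeing the data. Jund ran from −0.01 to 0.13 over these settings. The log2 ratio of mean thinned sums was −1.16 at 3000 UMIs and −1.20 at 1500 UMIs. The genes lower in all 6 clusters numbered 5 instead of 7 with thinned cells and with cells of at most 10% mitochondrial UMIs, both of which leave fewer UMIs to reach the minimum of 50. At 2-fold, 7 of the 40 other immediate early genes were lower and 5 higher. No paired analysis was possible because each genotype has 1 library. No left-out-replicate fit exists for the same reason. Depth limits Nr4a1 and Dusp1 most, with 176 and 174 KO UMIs.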
